A study of Homo sapiens with 2 samples.

Results

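Reproducible genomic models were defined as the transcript models that the deposited TALON table places in the category genomic and that were selected on their read counts, at least 5 in each of 2 libraries. The rule gave 4491 of 22904 genomic models (19.6%, 95% Wilson interval 19.1 to 20.1%), out of 237608 models in all. Although described as lying within genes, only 4453 of them were in annotated genes, of which they occupied 3933. The other 38 were in 17 loci that TALON had itself created, 28 of them in 12 antisense loci and 10 in 5 intergenic loci. The reads are native RNA strands of GM12878, an established human lymphoblastoid line that was made from B cells with the Epstein-Barr virus, sequenced on Oxford Nanopore flow cells from depleted RNA. The libraries form 1 group of 2 replicates with no treatment, and the labels do not say that they came from separate cultures. Every test here therefore compares the reads of 2 libraries and not 2 conditions, and the spread it measures may be technical.

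Direct RNA sequencing reads each strand from its poly(A) tail towards the 5′ end, so a strand that is read only in part keeps its 3′ end. TALON assigns a read to an annotated transcript by its chain of splice junctions. Part matches to such a chain and models with new splicing have categories of their own. A read that overlaps a gene and is placed in none of these is called genomic. The table holds no coordinates for these models, so where in the gene a member lay was not tested.

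Because genomic models are mostly single intervals, the annotated junctions that they lack are shown for 6 of the most-read hosts. Each line gives 30 coding bases of the annotated transcript with most reads, from GENCODE release 29 on GRCh38, 5′ to 3′ in the sense of the transcript. The first 15 bases, in lower case, end the next-to-last exon, and the 15 capitals begin the last exon.
ACTB: acaatgaagatcaagATCATTGCTCCTCCT
ACTG1: accatgaagatcaagATCATCGCACCCCCA
TUBB: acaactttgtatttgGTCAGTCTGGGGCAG
TUBA1B: cgaattcgcaagctgGCTGACCAGTGCACC
HSP90AA1: tcaaacttggtctggGTATTGATGAAGATG
LAPTM5: aagatgctccagaagGTGGTCCTGCCGTCC
The last exon began at position 5527891 of chromosome 7 in ACTB, 81510833 of chromosome 17 in ACTG1, 30723340 of chromosome 6 in TUBB, 49128938 of chromosome 12 in TUBA1B, 102081821 of chromosome 14 in HSP90AA1 and 30733917 of chromosome 1 in LAPTM5. It measured 745, 863, 2087, 1157, 1084 and 1449 bases in these transcripts, in the same order.

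A different group of hosts is one in which the annotation places a processed pseudogene, a retrotransposed intronless copy of an mRNA, in an intron on the same strand. For 2 of them an annotated copy had the coding sequence of an abundant mRNA letter for letter. Each of these 2 has a further such pseudogene, RPS6P8 in OOEP and NACAP8 in AC138123.1, which was not compared with its parent gene. RPL39P3 (chr6:73373108-73373263, minus strand), in OOEP, matched the RPL39 coding sequence at 153 of 153 bases, and RPL41P5 (chr12:93083598-93083675, minus strand), in AC138123.1, matched that of RPL41 at 75 of 75. Another example, HMGB1P6 (chr15:71164770-71165415, minus strand) in THSD4-AS1, matched HMGB1 at 633 of 642 aligned bases. In the 90-base stretch shown for that pair, capitals mark the 5 mismatches; the lines of RPL39P3 and RPL41P5, which have no mismatch with the parent gene, show 90 and 75 bases.
RPL39P3 and RPL39: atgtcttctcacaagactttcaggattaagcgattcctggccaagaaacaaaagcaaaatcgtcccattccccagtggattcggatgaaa
RPL41P5 and RPL41: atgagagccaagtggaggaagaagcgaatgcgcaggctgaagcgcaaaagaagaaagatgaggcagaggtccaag
HMGB1P6: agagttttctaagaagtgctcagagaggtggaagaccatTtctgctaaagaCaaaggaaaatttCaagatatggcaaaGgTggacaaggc
HMGB1: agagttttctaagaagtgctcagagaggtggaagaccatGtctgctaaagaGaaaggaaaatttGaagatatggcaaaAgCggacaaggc

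The libraries held 1360368 and 1510998 reads, so that 1 read was worth 0.735 and 0.662 CPM (reads scaled to the library total). Genomic models of every depth made up 11.0% of replicate 1 and 15.3% of replicate 2. The members accounted for most of them, with 130632 reads in replicate 1 (9.60% of the library, 9.55 to 9.65%) and 198735 in replicate 2 (13.2%, 13.1 to 13.2%), a mean of 11.4% ± 2.51 (SD, n = 2). They took 87.2% and 85.9% of the genomic reads, although 10152 of the genomic models rested on 1 read. Genes of B cells were read in the same libraries: MS4A1, which encodes CD20, had 360 and 416 reads, and CD79A, a chain of the B cell receptor complex, had 936 and 1026. Of the MS4A1 reads, 267 and 353 were genomic. The T cell receptor gene TRAC had 210 and 222 reads.

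Reads were distributed very unevenly over the members. The median member had 13 reads in replicate 1 (quartiles 8 and 24) and 19 in replicate 2 (11 and 37), while the largest had 5727 and 9499. The 10 most-read members held 14.2% and 15.7% of all member reads, and the top 50 held 25.6% and 26.8%. At the edge of the rule, 525 members had exactly 5 reads in their lower library (median counts 5 and 7), and 665 genomic models just outside it had 4 (median counts 4 and 6). At least 100 reads in each library were reached by 166 members, and at least 1000 by 7.

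**Figure D1:**
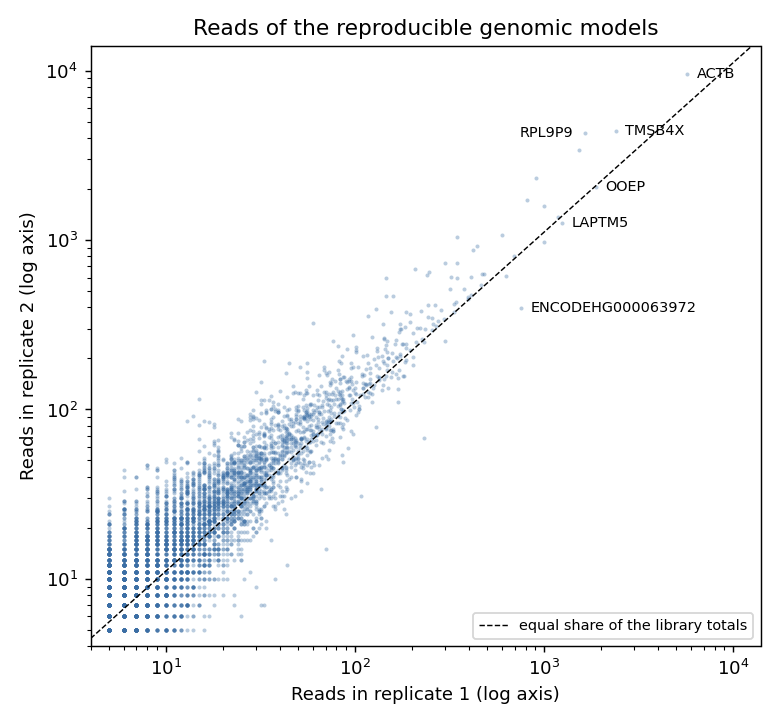
Reads of each of the 4491 members in replicate 1 (horizontal, log axis) and replicate 2 (vertical, log axis), 1 point per model; the dashed line marks equal shares of the 2 library totals. Most points lie above the line, as 3279 members had a higher CPM in replicate 2 and 1212 a lower one, and 1 model of the antisense locus ENCODEHG000063972 lies far below it with 759 and 395 reads.

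Ranked by their lower count, the first 2 members were in ACTB and TMSB4X, and 5 of the top 15 were in actin, thymosin or tubulin genes. The ACTB member, in the gene of beta-actin (chr7:5527147-5563784), had 5727 reads in replicate 1 and 9499 in replicate 2, or 27.1% and 41.8% of all ACTB reads. TMSB4X, which encodes the actin-sequestering peptide thymosin beta 4, had a member with 2406 and 4427 reads (11.8% and 18.2% of the gene). The member of ACTG1, the gene of gamma-actin, had 1539 and 3380 reads (20.4% and 41.6%). All 3 were higher in replicate 2 both in reads and in share of the gene. Of the tubulin genes, there were 998 and 1584 reads in the TUBB member (28.3% and 42.5%) and 819 and 1732 in that of TUBA1B (21.1% and 43.9%).

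Other leading members were in genes of chromatin, protein folding and antigen presentation. CALR, whose product calreticulin is a chaperone of the endoplasmic reticulum, had a member of 1000 and 978 reads, 57.8% and 72.0% of the gene. That member had a slightly lower CPM in replicate 2 (735 against 647), whereas its share of the gene was higher. The member of HSP90AA1, an inducible cytosolic chaperone, had 633 and 617 reads (34.3% and 47.6%). HMGN2 and HMGA1, which encode non-histone chromatin proteins, had members of 692 and 806 reads and of 599 and 1066 reads. CD74, the invariant chain of MHC class II, had 912 and 2337 (8.63% and 19.1%). EIF5A, the translation factor that carries hypusine, had 485 and 628 (27.4% and 34.8%), and LAPTM5, a lysosomal membrane protein of leukocytes, had 1248 and 1267 (64.5% and 72.2%).

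The remaining entries among the top 15 were of another kind. OOEP, an oocyte gene (chr6:73368555-73395133), had 1888 and 2059 reads in 1 member, all but 1 of the reads of the gene in each library. RBFOX2, a splicing regulator (chr22:35738736-36028425), had 1184 and 1372 reads in its member, 100% of the gene in both. The transcribed processed pseudogene RPL9P9 (chr15:82372196-82372912) had 1646 and 4300 member reads, 36.3% and 73.3% of its own total. OOEP and RBFOX2 were level between the libraries, and RPL9P9 was far apart.

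The lengths given for the models did not track these counts. The LAPTM5 member was listed at 13 bases, the RPL9P9 member at 87, the ACTB member at 395 and the EIF5A member at 4085. Of all members, 81 were listed at 1 base and 172 at under 50 bases, and the latter held 6219 and 9071 reads. One of them was the larger of 2 members in RHOA, the gene of a small GTPase that acts on actin, with 468 and 631 reads and a listed length of 1 base. A listed length is therefore a property of the model and not the length of its reads. The median listed length was 1147 bases (quartiles 670 and 1877.5), against 864 for all genomic models.

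Nearly all members were single intervals, 4478 with 1 exon, 12 with 2 and 1 with 3. Of the 13 with more than 1 exon, 10 were in 5 of the new loci, whereas 1847 of all genomic models had several exons. The largest of the 13, a 2-exon model of the antisense locus ENCODEHG000063972, had 231 reads in replicate 1 and 68 in replicate 2. The class I pseudogene HLA-Z had a 2-exon member of 11 and 10 reads.

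Listed lengths were set beside the exons of the host. They are not read lengths and the models have no coordinates, so these counts do not place any member in a last exon. In annotated genes, 3731 of 4453 members (83.8%) were listed as no longer than the longest annotated last exon of the gene. Without the models listed at 1 base it was 83.5% of 4373. Counting every exon of the gene, 3806 (85.5%) were within the longest one, and 647 (14.5%) exceeded it. Genomic models below the read minimum gave similar values, 81.9% within the last exon and 14.9% beyond any exon of 17889. TMSB4X (948 bases against a last exon of 451), TUBB (2849 against 2087), CALR (861 against 777), HMGN2 (2767 against 860) and EIF5A (4085 against 839) were among the hosts whose leading member exceeded it. With the last exon of the most-read annotated transcript in place of the longest, 68.9% of 3694 members were within it.

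Members were common in moderately sequenced genes. Of 6340 annotated genes with at least 20 reads in each library, 2951 (46.5%, 45.3 to 47.8%) held at least 1 member, and 982 further hosts were under that minimum. Over all 3950 hosts, 3495 had 1 member, 393 had 2, 51 had 3 and 11 had 4 or more. The most were in the antisense locus ENCODEHG000064149, with 11. The antisense locus ENCODEHG000063972, the intergenic locus ENCODEHG000061562 and the long noncoding gene FP671120.1 had 6 each. FP236383.1, a long noncoding gene of the same chromosome as FP671120.1, had 4. Both are annotated with 7 exons and a last exon of 467 bases. Whether their reads can be told apart was not tested, so the gene of origin is uncertain. TRAF1, an adaptor of TNF receptor signalling, EIF4EBP2, a repressor of cap-dependent translation, UBE2L3, a ubiquitin-conjugating enzyme, and CFLAR, an inhibitor of caspase-8, had 4 each.

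In these 2951 genes the genomic share, the part of the reads of a gene that fell in its genomic models, ranged widely. Its median was 37.5% in replicate 1 (quartiles 18.6 and 62.3%) and 52.0% in replicate 2 (29.4 and 76.7%), a mean over libraries of 44.8% ± 10.3 (SD, n = 2). Over all 6340 genes the medians were 6.53% and 11.0%. Known models, which match an annotated transcript, had a median of 22.8% and 11.1% of the reads of member genes. Incomplete splice matches (ISM), which have part of the junctions of an annotated transcript, had 15.8% and 18.7%. A member was the single most-read model of the gene in 1724 genes (58.4%) of replicate 1 and 2202 (74.6%) of replicate 2, and it was the same member in 1650. More than 50% of the reads were genomic in both libraries in 1024 genes.

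**Figure D2:**
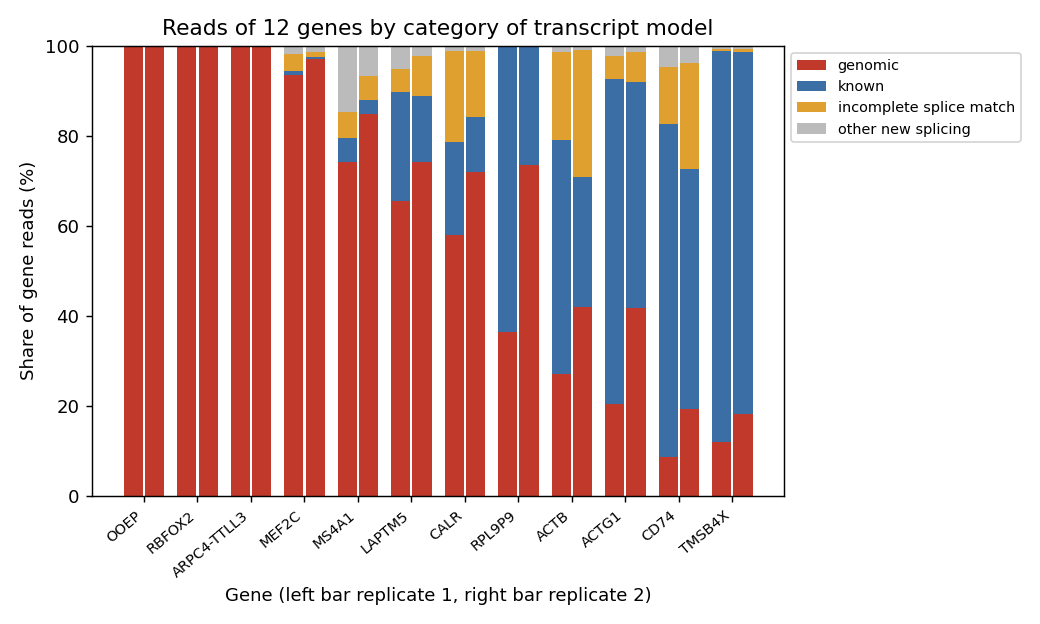
Share of the reads of 12 genes (vertical axis, %) in genomic, known, incomplete-splice-match and other new models, with the left bar of each pair for replicate 1 and the right bar for replicate 2. OOEP, RBFOX2 and ARPC4-TTLL3 are genomic throughout, MEF2C is over 90% genomic, and in ACTB, ACTG1, CD74 and TMSB4X known models make up more of the reads in replicate 1 than in replicate 2.

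At the top of the range, 223 genes (7.56%) had a mean genomic share of at least 90%, and 39 (1.32%) had no other read in either library. These values chose the genes and are given as a description. Classes were chosen after the values were seen, and each gene was counted once, in the first class that it met. The first class, annotated readthrough genes, had 19 of the 39. Next came 6 with a processed pseudogene in an intron on the same strand, 10 with a last exon of at least 2000 bases, and 4 with none of these. Counted without that order, readthrough genes were 48.7% of the 39 against 1.23% of all 6340 genes. Hosts of an intronic pseudogene were 20.5% against 4.46%. Last exons of at least 2000 bases were no more frequent in the 39 (33.3%) than in all genes (37.4%).

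Readthrough genes, whose annotated transcripts join exons of neighbouring genes, led the 39 in number. ARPC4-TTLL3 (chr3:9793082-9835401), which joins a subunit of the actin-nucleating Arp2/3 complex to a tubulin glycylase, had 257 and 349 reads. ARPC4 itself, with which it shares exons, had 344 and 252. AL136531.2 had 244 and 353 reads beside 193 and 171 in FKBP1A, AC073610.2 had 145 and 155 beside 104 and 119 in FKBP11, and AL365273.2 had 116 and 184 beside 127 and 95 in ENTPD1. In each of these pairs both genes had reads, and single-interval reads of overlapping genes cannot be told apart by junctions. AC011511.4 (77 and 113 reads) and AC021660.3 (76 and 99 reads) were also among the 15 named for their share. All 39 tie in genomic share, and those 15 had the most reads in replicate 1. Of 78 readthrough genes with the read minimum, 47 (60.3%) held a member, and the median genomic share was 62.7% and 71.8%. In 73 of the 78 no read matched a known model, and 16 had no genomic read in either library.

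Among the 39 wholly genomic genes, the 2 with most reads had an annotated intronic pseudogene. OOEP, host of RPL39P3 and RPS6P8, had 1889 and 2060 reads, all genomic. The RPL39 gene, which encodes a small protein of the large ribosomal subunit, had 2062 and 2051 reads, and RPL39P3 itself had 8 and 14. The coding bases of RPL39 and RPL39P3 shown above are identical, so the gene of origin of any OOEP reads on RPL39P3 is uncertain. RPS6P8 was not compared in this way. AC138123.1, host of RPL41P5 and NACAP8, had 397 and 462 reads, of which 100% and 99.4% were genomic, while RPL41 had 544 and 737. RBFOX2 (1184 and 1372 reads) contained NDUFA9P1, MECOM (81 and 134), which encodes a zinc finger transcription factor, contained RPL22P1, and STEAP1B (56 and 157) contained EEF1A1P6. EEF1A1P6 matched the coding sequence of EEF1A1, the elongation factor, at 1377 of 1384 bases, and THSD4-AS1 with HMGB1P6 had 28 and 35 reads. Whether the member reads lie on the pseudogenes was not tested. Across the table, 283 genes with the read minimum had such a pseudogene and 170 (60.1%) held a member, with a median genomic share of 23.8% and 34.6%.

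The 10 genes with a long last exon had 20 to 66 reads in replicate 1 and 21 to 103 in replicate 2. MTPN, the gene of myotrophin, had 57 and 103 reads and a last exon of 3252 bases. ALCAM, a cell adhesion molecule that binds CD6, had 53 and 49 reads in all, with 39 and 44 in one member and 14 and 5 in the other. PLEKHA2 had 66 and 89 reads. PEG10, a retrotransposon-derived gene (47 and 45), PTPN11, the phosphatase SHP2 (34 and 40), and TRIM56, a ubiquitin ligase of antiviral signalling (21 and 36), also had genomic reads only. The 4 genes without any of the listed features were noncoding: AL136115.2 (169 and 153 reads), AC093865.1 (52 and 39), AL662884.1 (49 and 48) and AC073896.4 (34 and 59).

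Across the table the genomic share was higher in genes with longer last exons. Among 6140 multi-exon genes, those whose longest last exon was under 500 bases (658 genes) had a median share of 0 in replicate 1 and 0.476% in replicate 2, and 18.7% of them held a member. Between 1000 and 2000 bases (1670 genes) the medians were 10.9% and 18.2%, and 51.3% held a member. At 5000 bases or more (461 genes) the medians were 36% and 46.2%, and 66.6% held a member. The median longest last exon was 2015 bases in genes with a member, 1493 in all genes and 1023 in genes without one.

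**Figure D3:**
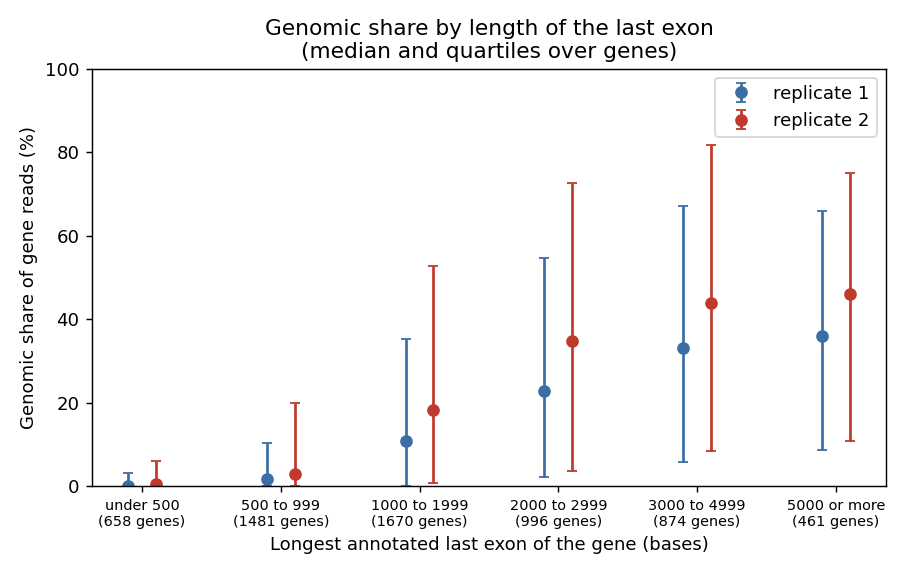
Genomic share of the reads of a gene (vertical axis, %) in 6 classes of the longest annotated last exon (horizontal axis, bases), with points for the median and bars for the quartiles over genes, blue for replicate 1 and red for replicate 2. The medians are higher in each successive class in both libraries, from 0 and 0.476% under 500 bases to 36% and 46.2% at 5000 bases or more, with wide overlap between classes.

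Over these genes, Spearman's rho between the genomic share and the longest last exon was 0.46 in replicate 1 and 0.43 in replicate 2. It was 0.28 and 0.27 for the gene span, 0.04 and 0.04 for the number of exons, and -0.24 and -0.20 for the number of reads. For the ISM share, which has the same total as its denominator, it was -0.43 and -0.59. Among the 2950 multi-exon genes with a member, rho was 0.45 and 0.41 for the last exon, -0.50 and -0.44 for the number of reads and -0.48 and -0.67 for the ISM share. These are descriptions across genes, which share libraries and are not independent replicates. Long last exons did not always go with a high share: B2M, the light chain of MHC class I, chosen here after its value was seen, had a last exon of 2403 bases and 2 genomic reads among 3788 and 2 among 5233. Of 200 single-exon genes 1 held a member (0.5%), the processed pseudogene RPLP0P6 (12 and 9 member reads of 281 and 477). In RPLP0P6, 266 and 461 reads matched a known model. Such genes have no junction for a read to lack, so nothing is read from their low value. The longest last exon of the 39 genes that were wholly genomic had a median of 647 bases, and over all 78 readthrough genes the median was 418.

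Some kinds of genes held members more often than others, beside 46.5% over all 6340 genes with the read minimum. Whether kinds differed was not tested. Protein-coding genes made up 2903 of the 2951 (98.4%), against 96.3% of all genes with the read minimum, and held 89.0% and 89.3% of member reads. Members were held by 13 of 29 lincRNA genes and 11 of 23 antisense genes (44.8% and 47.8%), both near the value over all genes. In processed pseudogenes the count was 1 of 106. Genes without introns, as these are, offer no junction for a read to lack, so nothing is read from their low values. In the gene lists used here, the share with a member was highest for HNRNP genes (15 of 19), actin and cytoskeleton genes (13 of 20), chaperones (11 of 17) and B cell genes (17 of 28). It was lowest for mitochondrially encoded genes (0 of 12), immunoglobulin genes (2 of 13), nuclear and regulatory long noncoding RNAs (2 of 8) and histones (4 of 14). Mitochondrially encoded genes also have no introns, so nothing is read from their 0 of 12. Between these were MHC (12 of 21), interferon response (10 of 18), SR splicing factor and CLK kinase (10 of 21), glycolysis (7 of 15), snoRNA host (6 of 13), translation factor (8 of 19), zinc finger (23 of 58) and ribosomal protein genes (31 of 84). The SR splicing factor and CLK kinase, glycolysis and snoRNA host lists, at 47.6%, 46.7% and 46.2%, were close to the value over all genes. Lists in which many genes held a member did not all have long last exons. The median was 2412 bases for HNRNP and 1024 for actin and cytoskeleton genes, against 445 for immunoglobulin and 6287 for the nuclear long noncoding RNAs. By median genomic share, actin and cytoskeleton genes (3.16% and 8.43%) and chaperones (2.54% and 6.96%) were below all genes (6.53% and 11.0%). HNRNP genes (17.2% and 26.7%) and B cell genes (9.42% and 12.9%) were above. The member rule is a minimum of reads and not of share, so a deeply read gene can pass at a low share. GAPDH held a member at a genomic share of 1.76% and 4.56%, among 11864 and 14844 reads. Over all genes, the median of the mean reads was 64.5 in those with a member and 63 in those without. How far the order of the lists reflects read depth was not tested.

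**Figure D4:**
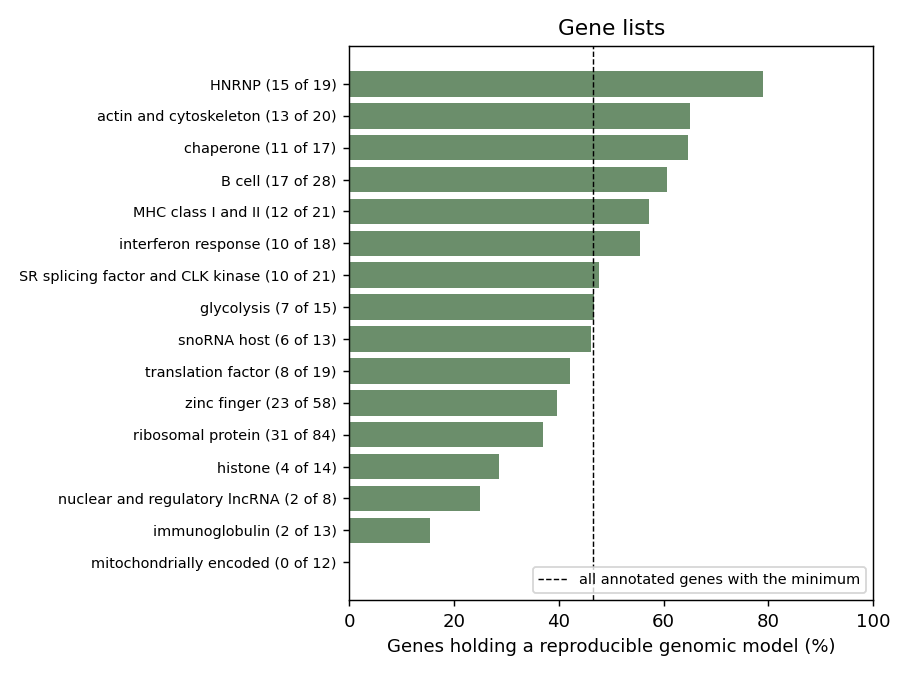
Percent of genes with at least 20 reads in each library that held a member (horizontal axis), by gene list, with the number holding a member and the number with the read minimum in brackets; the dashed line is the value over all annotated genes with the minimum, 46.5%. HNRNP genes reach 15 of 19, ribosomal protein genes 31 of 84 and mitochondrially encoded genes, which have no introns, 0 of 12.

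The B cell list had a median share of 9.42% and 12.9%, and 17 of its 28 genes held a member. Among its genes with high shares, in part named after their values were seen, were transcription factors of the lineage. IKZF3 (Aiolos) had 161 genomic reads of 162 in both libraries, MEF2C had 202 of 216 and 201 of 207, and PAX5, which maintains B cell identity, had 49 of 54 and 69 of 70. IKZF3 also has 2 annotated processed pseudogenes in introns on the same strand, and whether its reads lie on them was not tested. IKZF1 (Ikaros) had 75 of 81 and 86 of 93. MS4A1 had 3 members with 185 and 190, 74 and 145, and 8 and 17 reads, and a genomic share of 74.2% and 84.9%. POU2AF1, a coactivator of octamer-binding factors, had 72.6% and 82.2%. In contrast, CD79A held no member.

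Genes of antigen presentation had low to intermediate shares. HLA-E, a nonclassical class I molecule, had 189 genomic reads of 797 in replicate 1 and 366 of 906 in replicate 2 (23.7% and 40.4%). HLA-B had 4.58% and 10.5%, and reads of HLA genes can be split between similar loci. Of interferon-induced genes, the 2'-5'-oligoadenylate synthetase OAS2 had 3 members and a share of 45.2% and 77.0%, and IFI44L had 61.4% and 64.2%. IGHA1, the constant gene of the IgA1 heavy chain, had 2 members with 304 reads of 967 and 745 of 1994, and IGHG1 had 1 with 7 and 5 reads. TRAC, a T cell receptor constant gene, had 19 member reads of 210 and 52 of 222.

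Over the SR splicing factor and CLK kinase list the median share was 5.96% and 5.57%, and over the HNRNP list 17.2% and 26.7%. SRSF2, a splicing activator, had a share of 56.0% and 61.7%, TRA2B 45.9% and 41.5%, SRSF6 84.3% and 89.5%, and SRSF4 96.2% and 95.6%. HNRNPK had 27.1% and 37.2%, HNRNPA1, the most-read of the family, 13.7% and 21.4%, and HNRNPC, with 3 members, 34.5% and 38.8%. The snoRNA host SNHG16 had 61.1% and 64.9%, SNHG1 34.3% and 32.9%, and ZFAS1 4.59% and 6.31%. Among long noncoding RNAs, TUG1 had 78.6% and 83.8%.

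Ribosomal protein genes had a median share of 0.104% and 0.216%, but RPL29 had 347 and 1044 member reads (share 7.62% and 20.03%), RPL15 had 425 and 882 (9.90% and 18.3%) and RPL13A had 220 and 619 (3.42% and 8.22%). Of glycolytic enzymes, PGAM1 had 27.6% and 46.9%, PKM 10.4% and 19.6%, and GAPDH 1.76% and 4.56%. H2AFZ, a histone variant, had 8.09% and 17.5%, and H3F3B 22.6% and 27.5%. Of the chaperones, HSPA8 had 4.06% and 8.98%, and of the translation list TPT1 had 7.78% and 10.3%. The thinly read zinc finger gene ZNF672 had 29 genomic reads of 78 (37.2%) and 65 of 81 (80.2%).

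The libraries were then compared gene by gene with a two-sided Fisher's exact test of genomic against other reads, Benjamini-Hochberg adjusted over all 6340 genes at a threshold of 0.05. Of the 2951 genes with a member, 614 passed, where 10.4% of all genes tested did. The genomic share was higher in replicate 2 in 612 (background 10.4%) and lower in 2 (background 0.0473%). The median difference over the 2951 was 9.38 percentage points, and 2480 genes were above 0 and 416 below, while over all genes it was 1.91 points. The reads of both libraries chose the members, and genes without one have few genomic reads by construction, so nothing is read from the excess over the background. The whole library moved the same way, from 11.0% to 15.3% genomic reads.

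The shift is given by level of the share. Genes with a mean share between 50 and 75% had a median difference of 16.0 points (158 of 704 past the threshold), those between 25 and 50% had 13.3 points (188 of 892), those under 25% had 6.31 points (224 of 758), and those at 75% or more had 4.55 points (44 of 597). Among named genes, the share of ACTB was higher by 14.8 points (adjusted p = 2.75e-229, Fisher's exact test), that of ACTG1 by 21.2 points (adjusted p = 1.89e-179) and that of CD74 by 10.5 points (adjusted p = 1.82e-114). In the actin and cytoskeleton list 13 of 20 genes passed, all higher in replicate 2; 12 of them held a member and 1, LCP1, did not. For RPL9P9 the difference was 37.1 points. RPL9P9, of 636 bases, matched the RPL9 coding sequence, of 660 bases, at 449 of 450 aligned bases. The alignment covers part of each, and the near-identity there leaves the origin of RPL9P9 reads uncertain. The 5 largest differences among genes past the threshold were in genes with few reads: TPCN1, an endolysosomal channel, had 5 genomic reads of 21 in replicate 1 and 24 of 28 in replicate 2. RASA3 had 11 of 34 and 31 of 35, RNF139 had 10 of 20 and 25 of 25, DDX20 had 7 of 26 and 20 of 26, and TTC19 had 12 of 32 and 34 of 40.

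**Figure D5:**
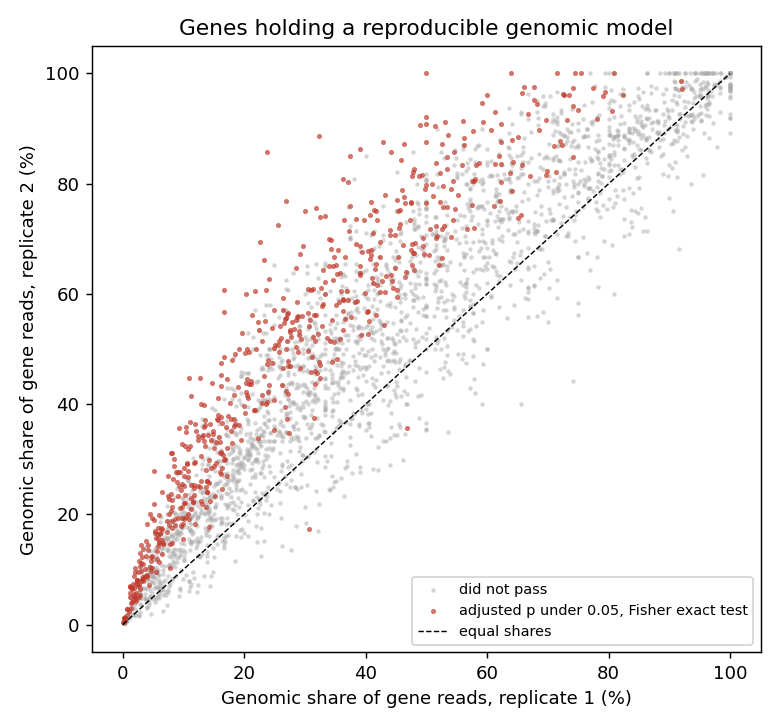
Genomic share of the reads of each of the 2951 genes with a member in replicate 1 (horizontal, %) and replicate 2 (vertical, %); red points passed Fisher's exact test at an adjusted p under 0.05, grey points did not, and the dashed line marks equal shares. Of the 614 red points, 612 lie above the line, and the 2 below it are MIR155HG and TOMM20.

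Only 2 genes with a member passed in the other direction. MIR155HG, the host transcript of the microRNA miR-155, which is abundant in activated B cells, had 65 genomic reads of 212 in replicate 1 (30.7%) and 38 of 218 in replicate 2 (17.4%, adjusted p = 0.0195, Fisher's exact test). TOMM20, a receptor of the mitochondrial outer membrane, had 127 of 271 (46.9%) and 131 of 368 (35.6%, adjusted p = 0.0434). By list, the counts that follow stand beside 10.4% higher over all genes tested. The lists with no gene past the threshold in the higher direction had 0 of 21 SR splicing factor and CLK kinase genes, 0 of 13 snoRNA hosts, 0 of 12 mitochondrially encoded genes and 0 of 8 nuclear long noncoding RNAs. At an unadjusted p under 0.05 in the same Fisher's exact test, in either direction, these lists had 2, 0, 0 and 1 genes, the last being MIR155HG. Mitochondrially encoded genes have no junction for a read to lack, so nothing is read from their counts. Among B cell genes 7 of 28 passed, all higher in replicate 2. They included MS4A1 (adjusted p = 0.00418) and CD53, a tetraspanin of leukocytes, at 13.5% and 37.2% (adjusted p = 1.59e-13). POU2AF1 (adjusted p = 0.0587) and MEF2C (adjusted p = 0.432) did not pass. The other lists had 8 of 21 MHC, 7 of 19 HNRNP, 6 of 17 chaperone, 6 of 18 interferon response, 6 of 15 glycolysis, 5 of 19 translation factor, 18 of 84 ribosomal protein, 2 of 58 zinc finger (and 1 lower), 1 of 14 histone and 1 of 13 immunoglobulin genes higher. Whether lists differed from each other was not tested.

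For single models, the split of the reads between the libraries was compared with that of the library totals in an exact binomial test (two-sided), adjusted over 25381 models with 10 reads or more in all. Of the 4491 members 508 passed, where 15.6% of all models tested did. They were higher in replicate 2 in 483 cases (background 8.23%) and lower in 25 (background 7.34%), with a median log2 ratio of 0.33. With the same read minimum, 1457 of 5840 known models passed, 242 higher and 1215 lower, with a median log2 ratio of -0.40, and 1043 of 7653 ISM models passed, 909 higher and 134 lower, with 0.30. New models with annotated splice sites were mostly lower (2 higher and 77 lower of 764), as were those with new splice sites (1 and 63 of 804). Antisense models had 9 higher and 8 lower of 107, and intergenic models 12 and 3 of 74.

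Among the leading members, the log2 ratio was 1.23 for RPL9P9 (adjusted p = 5.13e-208, exact binomial test), 1.21 for CD74 (adjusted p = 8.35e-109), 0.98 for ACTG1 (adjusted p = 3.26e-113) and 0.58 for ACTB (adjusted p = 6.27e-127). CALR was the one leading member to pass in the lower direction, at -0.18 (adjusted p = 0.0352). OOEP (adjusted p = 0.784), RBFOX2 (adjusted p = 0.543), HMGN2 (adjusted p = 0.620), LAPTM5 (adjusted p = 0.113), HSP90AA1 (adjusted p = 0.104) and EIF5A (adjusted p = 0.0664) did not pass. Of the 25 members that were lower, 10 lay in the new loci, and of the 483 that were higher, 5 did. The 10 include several models each of the antisense loci ENCODEHG000063972 and ENCODEHG000064149, and the 5 include several of the intergenic locus ENCODEHG000061562. Models of the same locus are not independent cases, so these counts do not describe new loci in general. The antisense locus ENCODEHG000063972 had 1097 member reads in replicate 1 and 497 in replicate 2, and the intergenic locus ENCODEHG000061562 moved the other way, with 316 and 873.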

How the data were processed

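Native RNA of 2 GM12878 libraries was sequenced with a direct RNA kit per the labels. The authors deposited raw counts of reads per TALON transcript model in 1 table. Its other deposited values are the exon number and the length of each model. The submitters' processing notes name minimap2 and hg38; versions, read filters and the annotation release are not given in the sources used here. Gene positions, types, exons and sequences were taken from GENCODE release 29 (GRCh38), in which all 3933 annotated hosts were found by identifier. The members and gene lists were chosen with earlier results of these data known. Members needed 5 reads in each library. Genomic shares used genes with 20 reads in each, and the last exon was the longest over the annotated transcripts. Shares have Wilson 95% intervals, which cover counting error only. Tests were Fisher's exact test per gene and an exact binomial test per model (scipy 1.17.1), Benjamini-Hochberg adjusted over all genes or models at 0.05, and both were tested on simulated data. Log2 ratios had 0.5 reads added to each count. Alternative scalings came from edgeR 4.0.16 (TMM) and DESeq2 1.42.0 (size factors) on gene counts. Named are the 15 members with the highest lower count, the 15 genes with the highest mean share, the 5 hosts with most members, the 5 largest share differences of each sign past the threshold, the 5 largest members with several exons, and 3 genes per list and gene type by member reads. The highest mean share was a tie, and the tied genes named were those with most reads in replicate 1. Other genes were named after their values were seen. Of the genes this rule selects, some are not reported here.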

Additional observations from a re-analysis of the deposited data

How the results depend on the processing

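No paired analysis was possible because both libraries belong to 1 group. Each library alone gave member reads of 9.60 to 13.2% and a median genomic share of 37.5 to 52.0%. A minimum of 10 reads in each library left 2700 members. The genomic share over genes had a median of 22.8% at a gene minimum of 100 reads and of 59.9% with ISM reads left out. Leaving out ISM reads also raised the genes past Fisher's exact test to 1014 (1013 higher and 1 lower), and to 922 among genes with a member (921 higher and 1 lower). Counting member models only gave 1 gene lower, overall and among genes with a member. Without a read filter the binomial test called 2055 models (1066 higher and 989 lower) and 254 members (240 higher and 14 lower), more models being tested. Against the last exon of the most-read known transcript, 68.9% of members had a listed length within it. Of these main values under the other settings tried, 18 moved by more than the spread between libraries or, for counts, by over 1.5 times, and 50 did not. The 50 include the settings with 1 library left out. A value from 1 library cannot lie further from the mean than that spread, so those settings could not move. Of the values of single genes, 15 moved and 51 did not. Depth limits the shares of genes near the minimum of 20 reads.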
